A study of Rattus norvegicus with 2 samples.

Results

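The genes described here are 49 genes that copy DNA or carry cells from G1 into S phase, out of 17455 in a table of gene expression from rat oligodendrocyte precursor cells (OPCs). They were taken by symbol from a written list of origin licensing factors, polymerases, enzymes of nucleotide supply and E2F targets, and all 49 were found in the table. No measured value enters the rule, but the list was written with earlier results of these data known. The cells, wild type by their labels, received either an empty vector or a Slit1 construct by transfection with a Lonza kit, and each group, called vector and Slit1 here, was 1 library of total RNA. The sources used here do not give the age of the animals or the time from transfection to harvest. The series asks what an excess of Slit1, a secreted ligand of Robo receptors, does to gene expression while OPCs differentiate.

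DNA replication starts when the origin recognition complex (ORC), Cdc6 and Cdt1 load the ring-shaped MCM2-7 helicase onto DNA in G1. Cyclin-dependent kinase and the Cdc7-Dbf4 kinase then let Cdc45 and GINS join the ring, and polymerases follow the opened fork. Many of these genes are transcribed in late G1 by E2F factors once the retinoblastoma protein has been phosphorylated. OPCs are dividing glial progenitors, and they leave the cell cycle as they become myelin-forming oligodendrocytes.

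The libraries held 18817462 estimated read counts in vector and 18998770 in Slit1. Slit1 itself measured 1.70 TPM (transcripts per 1000000) in vector and 229.7 TPM with Slit1, as labelled. Of 8 OPC lineage markers all 8 were present, with a summed level of 2079 TPM with vector and 2132 TPM with Slit1. This near-equal sum held members that lay on both sides of a ratio of 1. Sox10, a transcription factor of the oligodendrocyte lineage, measured 71.4 and 218.03 TPM (ratio 3.05), Gpr17, a receptor of differentiating precursors, 109.8 and 262.97 TPM (ratio 2.40) and Nkx2-2 31.96 and 47.1 TPM (ratio 1.47), while the receptor phosphatase Ptprz1 measured 913.6 and 688.2 TPM (ratio 0.753). The other 4 had ratios from 0.940 to 1.04. All 8 astrocyte markers were present as well and summed to 9446 and 10450 TPM, led by Gfap at 4694 and 6130 TPM (ratio 1.31). Of these 8, 4 had a log2 difference above 0 and 4 below. Aqp4, a water channel, measured 389.2 and 462.5 TPM (ratio 1.19), while the glutamate transporter Slc1a2 measured 215.4 and 94.1 TPM (ratio 0.437) and the gap junction gene Gja1 506.2 and 295.7 TPM (ratio 0.584). Microglial markers were near 0, with 5 of 8 in the table and a sum of 1.11 and 1.42 TPM. Markers of neurons (7 of 7 in the table) summed to 65.1 and 77.3 TPM. Those of endothelial cells (5 of 5) summed to 5.21 and 3.59 TPM, and those of fibroblasts and pericytes (5 of 6) to 11.7 and 12.4 TPM. Of the 6 neuron markers with a mean of at least 1 TPM, 3 had a log2 difference above 0 and 3 below. Tubb3 measured 33.6 and 46.5 TPM and Rbfox3 4.70 and 3.23 TPM. Flt1 made up most of the endothelial sum (4.51 and 2.25 TPM), while Kdr measured 0.24 and 0.80 TPM. Which of these cells carried the replication transcripts, and the part of the cell mixture in the differences below, was not tested. In bulk RNA, a different share of dividing cells and a different amount of RNA per dividing cell cannot be told apart.

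With 1 library in each group no difference has a replicate check and no p-value was computed. Each gene is given by its TPM in both libraries, by the ratio Slit1 to vector with a 95% counting interval, and, where lists are compared, by its log2(TPM + 1) in Slit1 minus that in vector. The counting interval covers the sampling of reads only and says nothing about the spread between cultures. All 49 genes passed the floor of a mean of 1 TPM, as did 13175 genes of the table.

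Most replication genes measured somewhat more in the Slit1 library. Of the 49 genes, 42 had a log2 difference above 0, against 43.7% of all 13175 genes tested, and 43 lay above the median gene. Under the 5 other scalings named below, the share of all genes above 0 ran from 48.9% to 51.0%. The median log2 difference of the 49 was 0.20, beside -0.05 over all genes tested, and together they took 1240 TPM with vector and 1401 TPM with Slit1. The steps were small. Only Tk1 was at least 1.5-fold higher on the log2(TPM + 1) scale, where 3.72% of all genes were, and 0 of the 49 were at least 1.5-fold lower, where 4.83% of all genes were. At a limit 25% above 1, and its reciprocal below, 15 of the 49 were higher (10.7% of all genes) and 1 was lower (17.9% of all genes). Of all genes past the 1.5-fold limit, 43.5% were on the higher side, and 54.3% with the median gene set to 0.

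Counting noise bounded what single genes could show. The interval lay wholly above 1 for 24 of the 49 genes (22.3% of all genes), wholly below 1 for 3 (33.5% of all genes) and held 1 for 22. Under at least 1 of 5 other scalings (counts per 1000000 counts, the deposited FPKM, library factors from edgeR, the median gene set to 0, and the trend on gene length removed) it also lay above 1 for Cdc6, Cdt1, Gins1, Pcna, Pold2, Rfc2, Ccne2 and Chaf1a, and it came to hold 1 for Prim2, Orc2 and Uhrf1. The estimated counts behind these values ran from 62.6 for Orc1 in vector to 2289 for Rrm1 in Slit1. The order of the levels was nearly the same in both libraries, with r = 0.983 and Spearman's rho = 0.969 for log2 TPM over the 49 genes, which are not independent replicates and share these 2 libraries. The signed log2 difference was only weakly related to the mean level (r = -0.12, rho = -0.13 over the 49 genes, as a description).

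**Figure D1:**
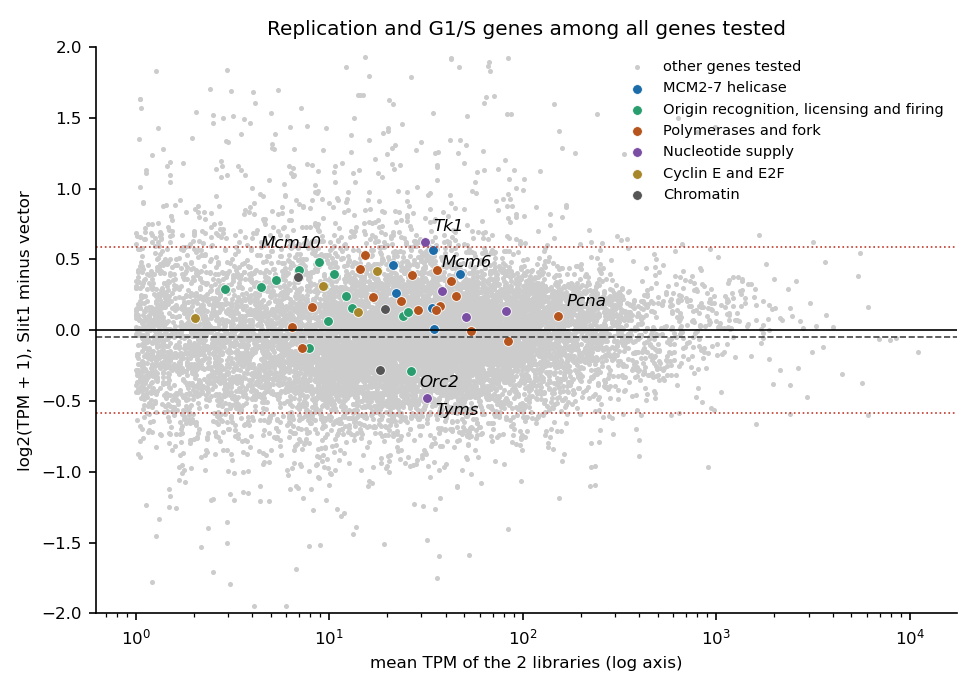
Log2(TPM + 1) difference, Slit1 minus vector, against the mean TPM of both libraries (log axis) for the 49 genes, coloured by role, and for the other genes tested in grey; the vertical axis ends at 2 on either side, which leaves 30 other genes outside. The dashed line is the median of all genes and the dotted lines mark 1.5-fold; most coloured points lie above the dashed line, and Tk1 is the 1 member past the upper dotted line.

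The promoters of these genes were compared with those of all genes tested, because E2F sites are the best known shared feature of the group. RefSeq (build GRCr8) gave windows of 300 bases, 250 before and 50 after the start of transcription, for 41 of the 49 genes (44 windows); Mcm4, Orc1, Cdc6, Gins4, Rrm2, Ccne2, E2f1 and E2f2 had no entry. The E2F consensus was searched on both strands as the words TTTCCCGC, TTTCGCGC, TTTGCCGC and TTTGGCGC. It was found in 17 of the 44 windows (38.6%), and in 3.88% of the 12277 windows of all genes tested. A second form, TTCCCGCC, which can overlap TTTCCCGC, was found in 7 of the 44 windows (15.9%) and in 3.64% of the windows of all genes tested. The CCAAT box bound by NF-Y, another factor of cell cycle promoters, was found in 25 of the 44 windows (56.8%) and in 37.7% of the windows of all genes tested. The share of G and C was alike in both sets, with a median of 60% and 60.3%. The step C followed by G, which every E2F word searched holds, had a median of 23 per member window. In the windows of all genes tested its median was 20. Part of the list was named for being E2F targets, so the higher share of E2F words is a description of the list.

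**Figure D2:**
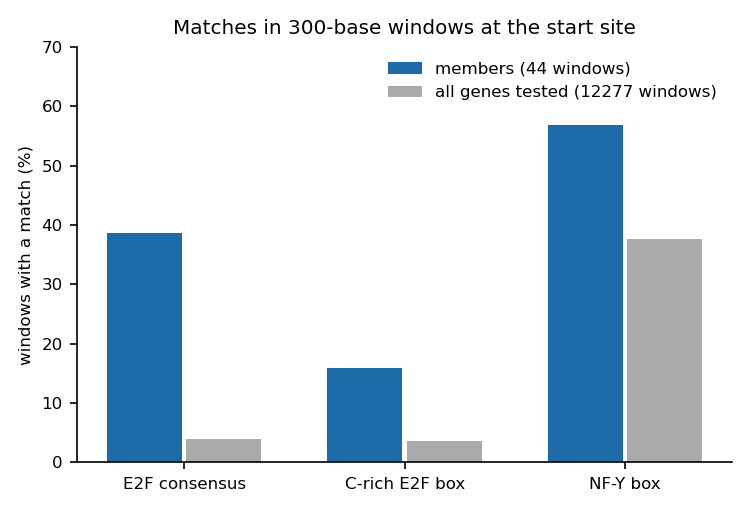
Share of promoter windows (percent, axis from 0) with at least 1 match to the E2F consensus words, to the C-rich E2F box and to the NF-Y box, for the 44 windows of the members and the 12277 windows of all genes tested. The bars for the E2F consensus stand at 38.6% and 3.88%, those for the NF-Y box at 56.8% and 37.7%.

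A rarer form stood out when the matches were read, and was counted after it had been seen. Here a word and its reverse complement overlap to give TTT, C or G, GCGC, C or G, AAA. It was found in 4 member genes, Mcm2, Mcm5, Mcm6 and Gins1, and in 5 of the 10745 genes tested that had a window; the fifth gene was Topbp1, a replication initiation factor. These stretches are shown because they hold this pair. All sequences run 5′ to 3′ and end at the last base before the start of transcription, and capitals mark the E2F words of either form.
Mcm6, chr13:42404353-42404502, minus strand: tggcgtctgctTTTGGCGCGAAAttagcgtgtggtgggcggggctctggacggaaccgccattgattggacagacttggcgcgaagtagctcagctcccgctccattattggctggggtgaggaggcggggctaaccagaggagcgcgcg
Mcm5, chr19:13488563-13488812, plus strand: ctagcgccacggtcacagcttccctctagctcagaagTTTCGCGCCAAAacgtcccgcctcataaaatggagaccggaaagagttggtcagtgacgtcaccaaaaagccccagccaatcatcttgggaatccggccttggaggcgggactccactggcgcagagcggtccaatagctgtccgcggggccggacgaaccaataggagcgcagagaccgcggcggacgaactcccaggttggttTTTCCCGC
Mcm2, chr4:122918095-122918154, minus strand: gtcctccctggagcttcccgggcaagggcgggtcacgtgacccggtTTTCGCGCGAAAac
Gins1, chr3:160184860-160184919, plus strand: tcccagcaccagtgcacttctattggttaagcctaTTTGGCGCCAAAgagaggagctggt

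The words did not sort the genes by their difference between the libraries. The 17 genes with an E2F consensus word had a median log2 difference of 0.24 (from -0.48 to 0.57), and the 24 without had 0.19 (from -0.28 to 0.62). For the second form, TTCCCGCC, the order was the reverse, with medians of 0.15 in the 7 genes with it and 0.24 in the 34 without. The 22 genes with either form had a median of 0.16, and the 19 with neither had 0.24. Among the 5 genes with the inverted pair the TPM ratio was 1.497 for Mcm6, 1.39 for Mcm5, 1.35 for Gins1, 1.12 for Mcm2 and 0.955 for Topbp1, whose log2 difference turned positive (0.07) with the trend on gene length removed. Words outside such a pair stood in the promoters of genes on both sides of a ratio of 1. Mcm7 and Gins3 had ratios above 1.3, while Pola1 and Tyms had ratios below 1. The interval of Pola1 held 1 (0.774 to 1.05). Each of these windows held 1 word except that of Mcm7, whose second word, GCGGGAAA, lies upstream of the stretch shown.
Mcm7, chr12:22163179-22163328, minus strand: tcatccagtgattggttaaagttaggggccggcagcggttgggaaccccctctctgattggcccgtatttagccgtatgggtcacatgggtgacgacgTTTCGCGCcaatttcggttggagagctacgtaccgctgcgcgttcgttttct
Gins3, chr19:9434680-9434739, minus strand: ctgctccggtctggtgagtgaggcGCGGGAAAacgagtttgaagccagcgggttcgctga
Pola1, chrX:62342356-62342555, minus strand: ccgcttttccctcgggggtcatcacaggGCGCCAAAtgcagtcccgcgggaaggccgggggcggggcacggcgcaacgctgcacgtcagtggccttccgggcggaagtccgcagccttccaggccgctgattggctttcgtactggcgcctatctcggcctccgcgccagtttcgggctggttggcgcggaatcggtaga
Tyms, chr9:120776084-120776233, minus strand: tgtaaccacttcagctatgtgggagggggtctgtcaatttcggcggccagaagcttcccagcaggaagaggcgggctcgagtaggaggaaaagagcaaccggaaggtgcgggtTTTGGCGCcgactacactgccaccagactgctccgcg

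The genes with the highest and the third highest log2 difference, Tk1 and Pola2, had neither form of the word in the window. No match says only that these letters are absent from these bases.
Tk1, chr10:103544778-103544927, minus strand: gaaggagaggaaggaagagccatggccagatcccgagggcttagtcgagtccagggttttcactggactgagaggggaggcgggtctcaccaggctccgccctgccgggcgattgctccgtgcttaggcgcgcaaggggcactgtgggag
Pola2, chr1:212680543-212680692, minus strand: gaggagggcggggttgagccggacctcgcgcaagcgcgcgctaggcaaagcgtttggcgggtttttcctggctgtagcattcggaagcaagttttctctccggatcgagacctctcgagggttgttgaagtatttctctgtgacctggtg

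The MCM2-7 genes encode the 6 related subunits of the replicative helicase. All 6 had ratios above 1 (43.7% of all genes tested), with a median log2 difference of 0.33. The interval lay above 1 for 5 (22.3% of all genes). Mcm6 measured 27.7 TPM with vector and 41.5 TPM with Slit1, a ratio of 1.497 (interval 1.36 to 1.65). Mcm5 measured 17.8 and 24.9 TPM (ratio 1.39, interval 1.24 to 1.57), and Mcm7 measured 40.9 and 54.2 TPM (ratio 1.32, interval 1.21 to 1.45). The ratios of the remaining subunits were lower. Mcm3 measured 20.04 and 24.3 TPM (ratio 1.21) and Mcm2 32.2 and 35.9 TPM (ratio 1.12). Mcm4 measured 34.8 and 35.0 TPM (ratio 1.004, interval 0.919 to 1.10). The intervals of Mcm6 and Mcm4, the highest and the lowest of the 6 ratios, did not overlap. This pair was picked after its values were seen, and the intervals cover counting error only. The spread between subunits was alike in both libraries, with the highest 2.29 times the lowest in vector and 2.23 times in Slit1.

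Origin recognition genes went both ways. Orc1, the subunit whose transcript is known to follow E2F, measured 2.51 TPM with vector and 3.29 TPM with Slit1 (ratio 1.31, interval 0.935 to 1.85). Orc6 measured 12.3 and 13.8 TPM (ratio 1.12, interval 0.898 to 1.41). Orc2 measured 29.2 and 23.8 TPM, a ratio of 0.815 (interval 0.731 to 0.908). The estimated counts of Orc2 were 686.9 and 647.8, and in counts per 1000000 counts (CPM), a scale without gene length, its interval held 1 (0.838 to 1.04). The other subunits, taken from the wider list of fork and origin factors, were Orc3 at 25.5 and 18.5 TPM (ratio 0.728, interval 0.664 to 0.798), Orc4 at 41.9 and 33.3 TPM (ratio 0.794, interval 0.741 to 0.851) and Orc5 at 37.3 and 35.5 TPM (ratio 0.952, interval 0.853 to 1.06). Orc4 and Orc5 were named after their values were seen. Across the complex, Orc1 and Orc6 thus had ratios above 1 and Orc2 to Orc5 below 1.

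Of the factors that load the helicase, Cdc6, an ATPase that works with ORC, measured 3.89 TPM with vector and 5.03 TPM with Slit1 (ratio 1.29, interval 0.977 to 1.72). Cdt1, which brings the MCM ring, measured 11.1 and 13.3 TPM (ratio 1.20, interval 0.997 to 1.45). Geminin (Gmnn), the inhibitor of Cdt1, measured 23.3 and 24.97 TPM (ratio 1.07, interval 0.877 to 1.31). In TPM all 3 intervals held 1. That of Cdt1 lay above 1 under all 5 other scalings (1.03 to 1.498 with the median gene set to 0), that of Cdc6 under 4 of them (1.01 to 1.78 with the median gene set to 0, but 0.993 to 1.75 in CPM), and that of Gmnn held 1 under each.

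Of the 8 factors that turn the loaded ring into a working helicase, 7 had ratios above 1 (43.7% of all genes tested), all but Dbf4. The interval lay above 1 for 4 (22.3% of all genes). Mcm10, which acts in helicase activation, measured 7.22 and 10.5 TPM (ratio 1.45, interval 1.24 to 1.70). Cdc45 measured 5.85 and 8.18 TPM (ratio 1.40, interval 1.07 to 1.84). The GINS subunits, which complete the active helicase with Cdc45, all lay above 1. Gins1 measured 9.02 and 12.2 TPM (ratio 1.35, interval 0.996 to 1.84), Gins2 8.30 and 10.6 TPM (1.27, 1.09 to 1.49), Gins3 4.55 and 6.09 TPM (1.34, 1.01 to 1.78) and Gins4 24.3 and 26.7 TPM (1.10, 0.910 to 1.33). The intervals of these subunits overlapped. Cdc7, the kinase that phosphorylates the MCM ring, measured 9.61 and 10.1 TPM (ratio 1.05, interval 0.874 to 1.26), and its activating subunit Dbf4 measured 8.26 and 7.49 TPM (ratio 0.907, interval 0.711 to 1.16). Over the 14 genes of origin recognition, licensing and firing, 12 had a log2 difference above 0 (43.7% of all genes) and the median was 0.27.

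**Figure D3:**
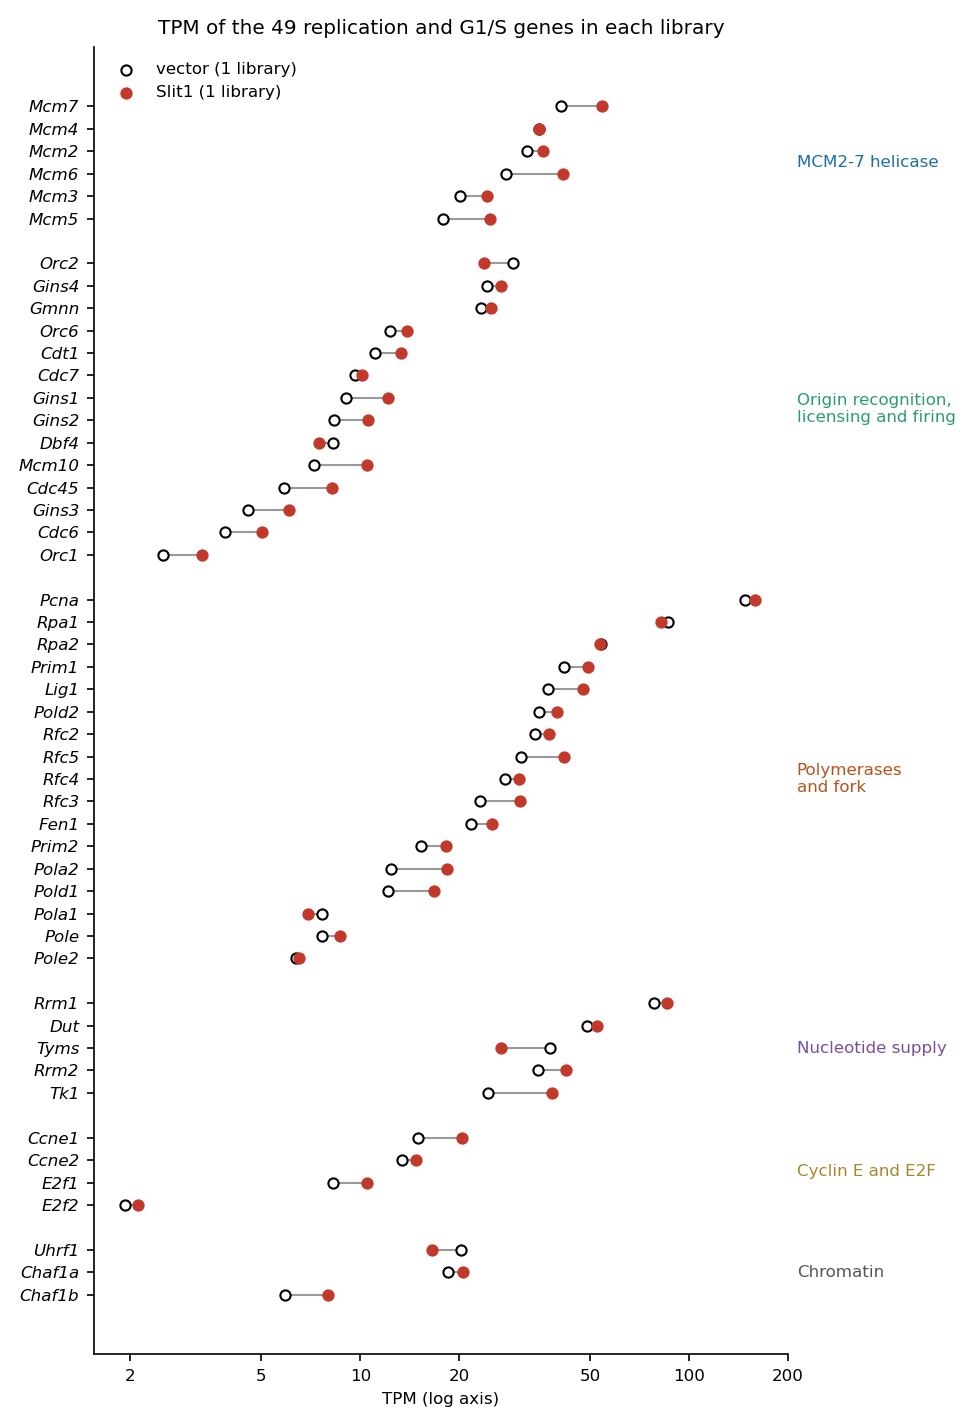
TPM (log axis) of each of the 49 genes in the vector library (open circles) and the Slit1 library (filled circles), joined by a line and grouped by role. Pcna stands highest at 147.8 and 158.6 TPM and E2f2 lowest at 1.93 and 2.11 TPM, and the filled circle lies to the right of the open one for 42 genes.

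The DNA polymerases differed within and between complexes. Polymerase alpha-primase makes the primers of new strands. Its accessory subunit Pola2 measured 12.4 TPM with vector and 18.3 TPM with Slit1 (ratio 1.48, interval 1.251 to 1.75), while its catalytic subunit Pola1 measured 7.65 and 6.91 TPM (ratio 0.903, interval 0.774 to 1.05). The intervals of Pola1 and Pola2 did not overlap. The direction of Pola1 was turned when the trend on gene length was removed (log2 difference 0.003). The primase subunits lay between, with Prim1 at 41.5 and 49.1 TPM (ratio 1.18, interval 1.05 to 1.33) and Prim2 at 15.3 and 18.2 TPM (ratio 1.19, interval 1.002 to 1.41). In CPM the ratio of Prim2 was 1.06 and its interval held 1.

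Polymerase delta extends the lagging strand and polymerase epsilon the leading strand. Pold1, the catalytic subunit of delta, measured 12.1 and 16.7 TPM (ratio 1.38, interval 1.20 to 1.59), and its partner Pold2 measured 35.0 and 39.6 TPM (ratio 1.13, interval 0.999 to 1.28). Pole, the catalytic subunit of epsilon, measured 7.64 and 8.70 TPM (ratio 1.14, interval 1.005 to 1.29), and Pole2 measured 6.37 and 6.49 TPM (ratio 1.02, interval 0.784 to 1.33). The intervals of Pold1 and Pold2 overlapped, as did those of Pole and Pole2. Outside the list, Pold3 of delta measured 19.2 and 17.1 TPM (ratio 0.890, interval 0.775 to 1.02). The interval of Pold3 lay wholly below that of Pold1. Pold4, Pole3 and Pole4 had ratios of 1.13, 0.969 and 0.983, with intervals that held 1. These subunits outside the list were named after their values were seen.

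The sliding clamp Pcna was the most abundant of the 49 genes and differed little, at 147.8 and 158.6 TPM (ratio 1.07, interval 0.998 to 1.15). The clamp loader opens the ring of Pcna, and its 4 subunits on the list all lay above 1. Rfc5 measured 30.9 and 41.7 TPM (ratio 1.35, interval 1.19 to 1.54) and Rfc3 23.1 and 30.6 TPM (ratio 1.32, interval 1.12 to 1.57). Rfc2 measured 33.9 and 37.6 TPM and Rfc4 27.5 and 30.4 TPM, both with a ratio of 1.11 and an interval that held 1. The ratio of Rfc1, the large loader subunit, was 0.895 (31.7 and 28.4 TPM, interval 0.827 to 0.969); it was named after its value was seen.

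For the single-strand binding protein RPA, which also serves in DNA repair, both intervals held 1, as did that of Mcm4 in the helicase. Rpa1 measured 86.3 and 82.0 TPM (ratio 0.950, interval 0.893 to 1.01) and Rpa2 54.0 and 53.7 TPM (ratio 0.995, interval 0.893 to 1.11). The sign of Rpa2 was positive in CPM, in FPKM, with TMM factors and after centring on the median gene (log2 differences from 0.03 to 0.04). The enzymes that finish the lagging strand were both above 1: the DNA ligase Lig1 measured 37.3 and 47.6 TPM (ratio 1.28, interval 1.17 to 1.39) and the flap nuclease Fen1 21.8 and 25.2 TPM (ratio 1.16, interval 1.01 to 1.33). Over the 17 genes of polymerases and fork, 14 had a log2 difference above 0 (43.7% of all genes tested) and the median was 0.17. The interval lay above 1 for 9 (22.3% of all genes) and below 1 for 0 (33.5% of all genes).

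Nucleotide supply held both ends of the list. Tk1, the thymidine kinase of the salvage pathway, measured 24.5 TPM with vector and 38.2 TPM with Slit1, a ratio of 1.56 (interval 1.39 to 1.76). Tyms, thymidylate synthase of the de novo pathway to the same nucleotide, measured 37.7 TPM with vector and 26.7 TPM with Slit1, a ratio of 0.708 (interval 0.655 to 0.767). Tyms thus stood above Tk1 in vector and below it in Slit1. The difference of Tyms was smaller in CPM, with a ratio of 0.773 (interval 0.714 to 0.837), and kept its interval below 1 there. Its log2 difference of -0.48 lay at percentile 7.89 of all genes tested and that of Tk1, 0.62, at percentile 96.7.

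The remaining nucleotide genes lay between. Ribonucleotide reductase makes deoxyribonucleotides from ribonucleotides; its large subunit Rrm1 measured 78.1 and 85.9 TPM (ratio 1.10, interval 1.04 to 1.17) and its S phase subunit Rrm2 34.7 and 42.2 TPM (ratio 1.21, interval 1.10 to 1.34). Dut, which removes dUTP, measured 48.97 and 52.4 TPM (ratio 1.07, interval 0.927 to 1.24). The value just inside the 1.5-fold limit was that of Tk1 (log2 difference 0.62) and the value just outside it that of Mcm6 (0.57).

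The 4 regulators of S phase entry all had ratios above 1, as did 43.7% of all genes tested. Ccne1, cyclin E1, the partner of Cdk2 at the start of S phase, measured 15.0 TPM with vector and 20.4 TPM with Slit1 (ratio 1.36, interval 1.15 to 1.61). Ccne2, cyclin E2, measured 13.4 and 14.8 TPM (ratio 1.10, interval 0.955 to 1.27). E2f1, an activating E2F factor, measured 8.23 and 10.5 TPM (ratio 1.27, interval 1.05 to 1.54), and E2f2, a second one, 1.93 and 2.11 TPM (ratio 1.09, interval 0.787 to 1.52). The intervals of cyclin E1 and E2f1 lay above 1, those of cyclin E2 and E2f2 held 1.

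The chromatin genes of the list were split. Chaf1b and Chaf1a encode subunits of CAF-1, which places histones on new DNA; Chaf1b measured 5.89 and 7.96 TPM (ratio 1.35, interval 1.03 to 1.77) and Chaf1a 18.5 and 20.6 TPM (ratio 1.11, interval 0.990 to 1.252). Uhrf1, which guides maintenance DNA methylation at the fork, measured 20.3 and 16.5 TPM (ratio 0.813, interval 0.721 to 0.916). In CPM the interval of Uhrf1 held 1 (0.791 to 1.01). Orc2, Tyms and Uhrf1 were the 3 genes whose interval lay below 1 in TPM.

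**Figure D4:**
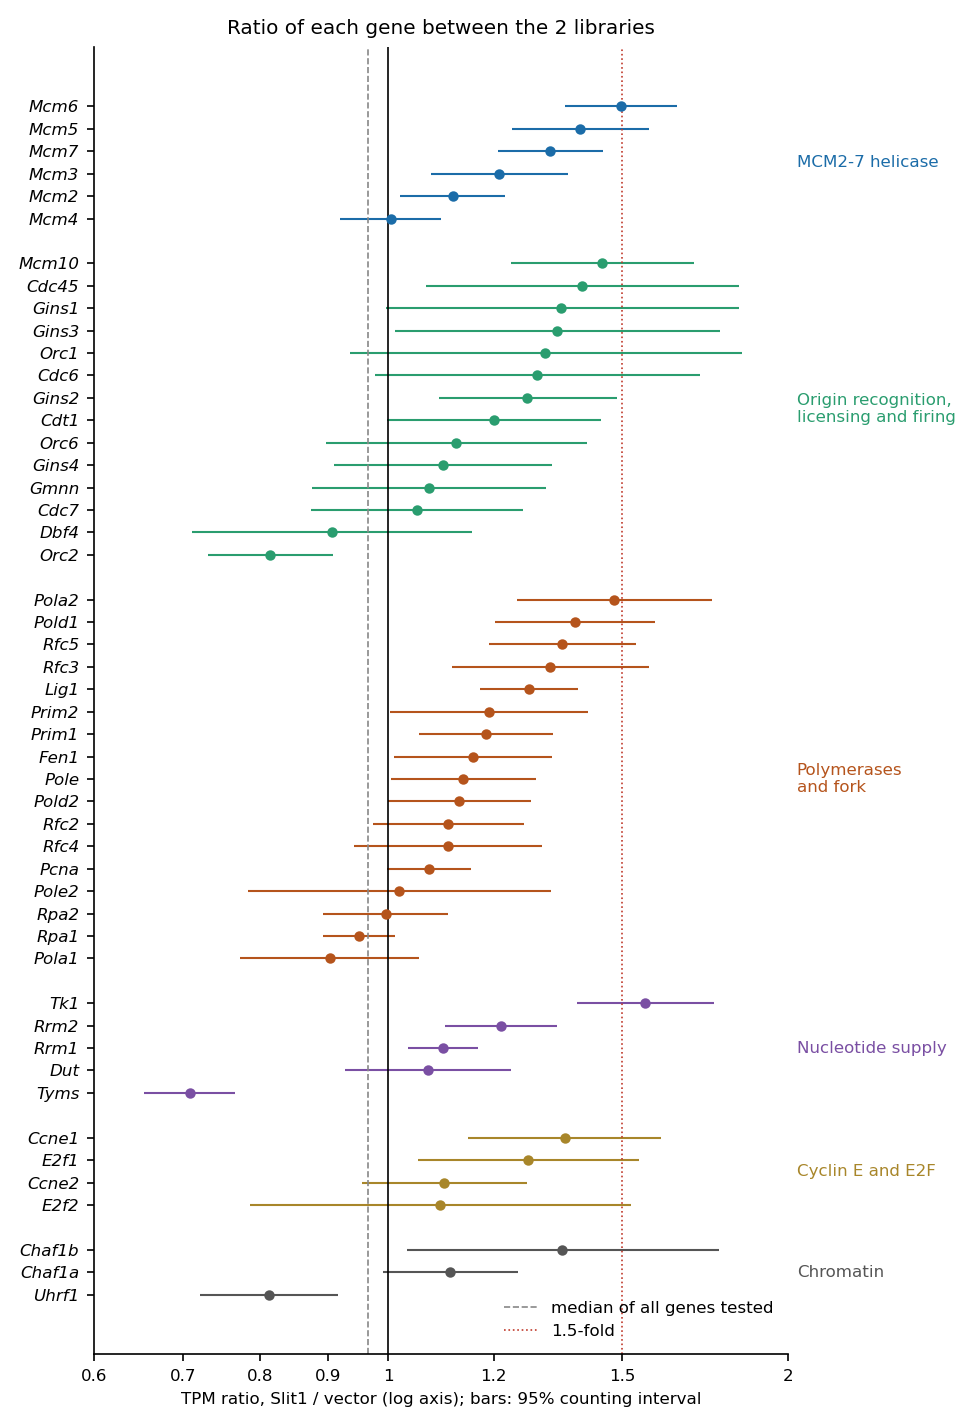
TPM ratio Slit1 to vector (log axis) for the 49 genes by role; bars are 95% counting intervals, the solid line is a ratio of 1, the dashed line the median ratio of all genes tested (0.965) and the dotted line 1.5-fold. Tk1 (1.56), Mcm6 (1.497) and Pola2 (1.48) lie farthest to the right and Tyms (0.708) farthest to the left.

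The reading of a gene can take in reads of a neighbour where the handling of strand is not known. By RefSeq, 15 of the 49 genes overlap another annotated gene. The protein-coding neighbours with a measured level were Tmem258 at Fen1 (112.1 and 117.8 TPM), Gse1 at Gins2 (15.4 and 16.6 TPM), Klhdc1 at Pole2 (12.1 and 9.06 TPM), Zswim9 at Lig1 (9.76 and 8.83 TPM), Cys1 at Rrm2 (0.12 and 0.38 TPM) and Arrdc5 at Uhrf1 (0.19 and 0 TPM). Without the 15 genes, 30 of the other 34 had a log2 difference above 0 (43.7% of all genes tested) and the median was 0.20.

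Genes of the same processes outside the list were compared from wider lists, with calls at 1.5-fold on the log2(TPM + 1) scale, which is narrower than the TPM ratio for low genes. The other fork and origin factors, 30 of 31 of them above the floor, did not share the upward lean. Of these 30, 13 were above 0, near the share of all genes tested (43.7%), with a median of -0.04 and a mean of 0.03. At 1.5-fold, 1 gene was higher (3.72% of all genes) and 0 lower (4.83% of all genes). Their largest differences were those of Dscc1, a cohesion factor at the fork (4.58 and 9.35 TPM, ratio 2.04, interval 1.48 to 2.85), Top1, topoisomerase 1 (127.3 and 89.2 TPM, ratio 0.701, interval 0.659 to 0.745), the helicase gene Recql4 (2.82 and 4.29 TPM, ratio 1.52, interval 1.17 to 1.99) and Orc3. Of 20 other genes of nucleotide supply, 12 were above 0 (43.7% of all genes tested), with a median of 0.02 and a mean of -0.03. At 1.5-fold, 1 gene was higher (3.72% of all genes) and 2 lower (4.83% of all genes). The higher one was Dctpp1, a pyrophosphatase that clears unusual nucleotides (ratio 1.54, from 78 and 125 counts). The lower ones were Rrm2b, the reductase subunit of resting cells, and Dck, deoxycytidine kinase. Rrm2b measured 25.9 and 16.4 TPM (ratio 0.631, interval 0.571 to 0.698) and Dck 26.0 and 16.9 TPM (ratio 0.651). Ppat, the first enzyme of purine synthesis, had a ratio of 0.680. Rrm2b, the counterpart of Rrm2, thus had a ratio below 1 beside 1.21 for Rrm2, and their intervals did not overlap.

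The upstream regulators showed no common direction. Of 17 genes of the RB, E2F and MuvB complexes, 6 were above 0 (43.7% of all genes tested) and the median was -0.07. At 1.5-fold, 0 were higher (3.72% of all genes) and 0 lower (4.83% of all genes). Mybl2 and Foxm1, transcription factors of the later cell cycle, measured 10.3 and 14.7 TPM (ratio 1.43, interval 1.24 to 1.65) and 9.92 and 13.9 TPM (ratio 1.41). The ratios of Lin52, a MuvB subunit, and E2f5, a repressive E2F, were 0.679 and 0.738. Rb1, the retinoblastoma gene, measured 53.8 and 41.4 TPM (ratio 0.769, interval 0.721 to 0.819), and E2f4 measured 37.7 and 49.6 TPM (ratio 1.31); both were named after their values were seen.

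Among 23 other G1 and S phase cyclins, kinases and regulators, 11 were above 0 (43.7% of all genes tested) and the median was -0.01. At 1.5-fold, 2 were higher (3.72% of all genes) and 2 lower (4.83% of all genes). The lower ones were D cyclins, which act ahead of cyclin E: Ccnd2 measured 324.1 and 151.5 TPM (ratio 0.467, interval 0.442 to 0.494) and Ccnd1 521.6 and 280.7 TPM (ratio 0.538, interval 0.525 to 0.552). The higher ones were Cdkn1c, the kinase inhibitor p57 (ratio 2.52, interval 2.27 to 2.81), and Fbxo5, an inhibitor of the anaphase-promoting complex (4.11 and 7.42 TPM, ratio 1.81, interval 1.33 to 2.47). The third D cyclin went the other way, with Ccnd3 at 78.6 and 88.01 TPM (ratio 1.12, interval 1.04 to 1.21), above 1 like Ccne1 and Ccne2. Cdk2, the partner of cyclin E, measured 17.7 and 17.5 TPM (ratio 0.989, above 1 under every other scaling run). Ccna2, cyclin A2 of S phase, measured 18.3 and 22.2 TPM (ratio 1.21). Ccnd3, Cdk2 and Ccna2 were named after their values were seen. The kinase inhibitors other than Cdkn1c went both ways. Cdkn1a measured 464.2 and 314.3 TPM (ratio 0.677), and the ratios of Cdkn2b and Cdkn1b were 0.680 and 0.740. The ratio of Cdkn2d was 1.43, and those of Cdkn2c and Cdkn2a were 1.16 and 1.07 with intervals that held 1. These further inhibitors were also named after their values were seen.

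Of 17 genes of chromatin and cohesion that work beside the fork, 7 were above 0 (43.7% of all genes tested) and the median was -0.07. At 1.5-fold, 1 was higher (3.72% of all genes) and 1 lower (4.83% of all genes). These were paralogs: Asf1b, the histone chaperone of dividing cells, measured 7.09 and 11.5 TPM (ratio 1.62, interval 1.2502 to 2.11), and Asf1a measured 45.7 and 29.8 TPM (ratio 0.652, interval 0.591 to 0.718). Cdca5, a cohesion factor, had a ratio of 1.497 and the chromatin remodeller Hells 0.666 (8.78 and 5.85 TPM). Of 21 genes of the S phase checkpoint and fork repair, 13 were above 0 (43.7% of all genes tested) and the median was 0.10. At 1.5-fold on the log2(TPM + 1) scale, 0 were higher (3.72% of all genes) and 0 lower (4.83% of all genes). The plain TPM ratios of Atr and Exo1 did pass 1.5-fold. The largest differences were those of Atr, the checkpoint kinase (8.53 and 5.49 TPM, log2 difference -0.55, ratio 0.644, interval 0.565 to 0.733), Exo1, a nuclease (1.69 and 2.88 TPM, log2 difference 0.53, ratio 1.70, from 64 and 111 counts), and Fanca and Fanci of the crosslink repair pathway (ratios 1.41 and 1.31).

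Markers of mitosis, the phase after replication, had a larger median difference than the replication genes. Of 22 markers, 21 were above 0 (43.7% of all genes tested) and 3 were at least 1.5-fold higher (3.72% of all genes). The interval lay above 1 for 16 (22.3% of all genes). The median log2 difference of the 22 was 0.37, beside 0.20 for the 49 replication genes and -0.05 for all genes tested. Birc5 (survivin), Ttk, a spindle checkpoint kinase, and Ube2c, a ubiquitin-conjugating enzyme of mitotic exit, passed the limit with ratios of 1.84, 1.78 and 1.57, and Cdk1 measured 35.8 and 54.0 TPM (ratio 1.51, interval 1.32 to 1.73). Under the 5 other scalings the median of the mitosis markers ran from 0.34 to 0.42 and that of the checkpoint and repair genes from 0.12 to 0.21, while the medians of the other 5 wider lists stayed between -0.10 and 0.07, and those below 0 in TPM reached above 0 under at least 1 scaling. The difference between the lists has no test in this design.

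**Figure D5:**
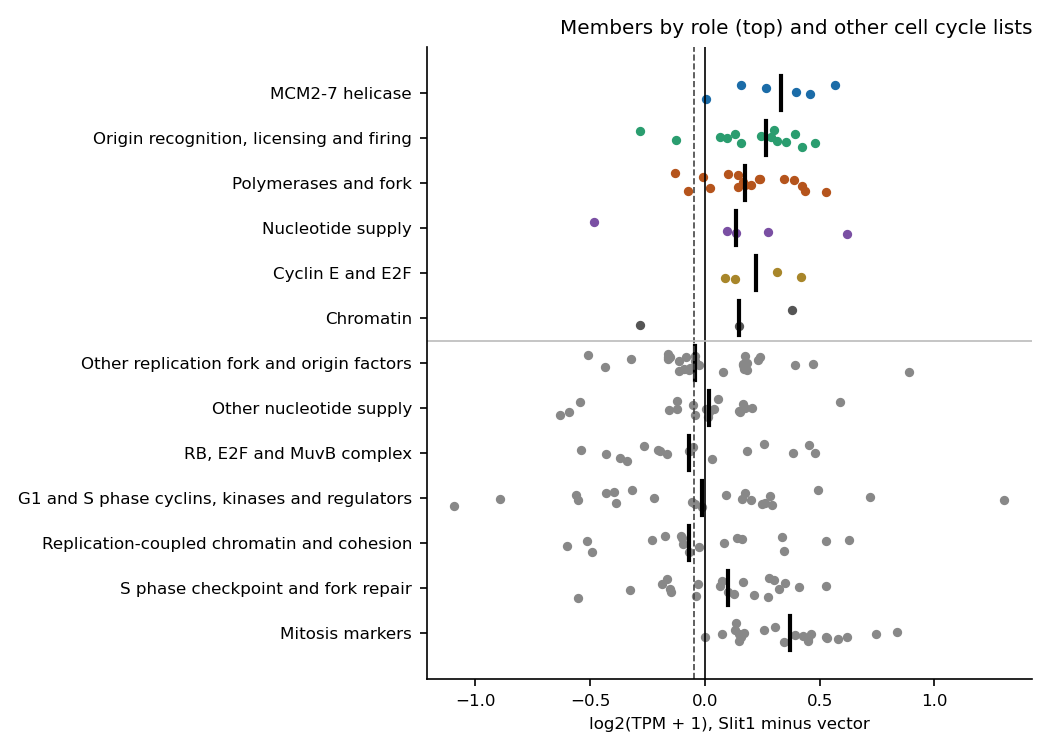
Log2(TPM + 1) difference, Slit1 minus vector, of every gene above the floor (points) with the median of each list (black bars); lists above the grey line are the 49 genes by role and those below are other cell cycle lists. The medians run from 0.14 (nucleotide supply) to 0.33 (MCM2-7) above the line and from -0.07 to 0.37 (mitosis) below it, and the dashed line marks the median of all genes tested (-0.05).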

How the data were processed

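RNA of 2 transfected OPC cultures, 1 per group, was sequenced after standard Illumina library preparation, per the labels' protocols. Per the file headers, the authors deposited FPKM, TPM and read counts per gene. The deposited read counts are estimated counts with decimals; the deposited TPM sum to 1000000 per library. The submitters' processing notes name the build mRatBN7.2; the sources used here do not give the aligner, counter, annotation or strand.

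Differences of log2(TPM + 1) were taken for the 13175 genes whose mean reached 1 TPM. Counting intervals are exact (Clopper-Pearson, 95%) intervals of the ratio of 2 counts after rounding, then scaled to the TPM ratio; they cover counting error only. The calculation was tested on simulated counts that held only the counting error the intervals assume. That tests the arithmetic and cannot show whether the deposited estimated counts carry more error. Alternatives were other pseudocounts, floors, fold limits and scalings (edgeR 4.0.16 TMM factors, CPM, FPKM, lowess on gene length with statsmodels 0.14.6). The text names all 49 genes and, from each wider list, up to 4 genes with the largest absolute difference; others are marked. The members and lists were chosen with earlier results of these data known. Names, overlaps and promoters come from RefSeq GRCr8, matched by gene number for 49 of 49 genes.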

Additional observations from a re-analysis of the deposited data

How the results depend on the processing

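With the 49 genes as reported, 1 was at least 1.5-fold higher; the number was 0 with a pseudocount of 5, 2 with the median gene set to 0, in CPM and in FPKM (Mcm6 with Tk1), and 3 with edgeR TMM factors (Pola2 as well) or with the length trend removed (Mcm10 in place of Pola2). At limits 25% above 1 and at 2-fold it was 15 and 0, and 1 gene was lower at the first of these. The number with an interval below 1 was 3, and 1 (Tyms) with edgeR TMM factors and in CPM. The number of genes above 0 was 42 or 43 of 49 under every scaling and pseudocount run, 39 of 46 at a floor of 5 TPM and 30 of 34 without genes that overlap another gene, an alternative added after seeing the data. The share of all genes tested above 0 was 43.7% in TPM. It ran from 48.9% (CPM) to 51.0% (length trend removed) under the 5 other scalings. The median log2 difference ran from 0.16 (pseudocount of 5) to 0.25 (median gene set to 0), and the number with an interval above 1 from 24 to 31 of 49. Of the 49 genes, 47 kept their sign under the 5 other scalings; Pola1 and Rpa2 did not. The causes of these shifts were not tested. No paired analysis was possible because each group held 1 library. For genes under about 100 counts, such as Orc1 and E2f2, depth limits what can be seen.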
